A study of Mus musculus with 246 samples.

Results

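Fkbp5, the gene of the co-chaperone FKBP51 that SAFit2 inhibits, was examined together with the corticosteroid receptors, the HSP90 chaperones and the enzyme that regenerates corticosterone. The 9 genes, Fkbp5, Fkbp4, Nr3c1, Nr3c2, Hsp90aa1, Hsp90ab1, Ptges3, Stip1 and Hsd11b1, were picked by name out of 56691 genes in the count table, and all 9 passed the filter on low counts in every region. The data were RNA-seq libraries from adult CD1 male mice of 3 conditions. Ctrl_Veh (Ctrl_Vehicle in the labels) were reared with standard bedding and sufficient nesting material by dams given an empty slow-release gel under the skin. ELA_Veh (ELA_Vehicle) were reared with limited bedding and nesting by dams given the same gel. ELA_SAFit2 were reared with limited bedding and nesting by dams whose gel carried SAFit2, which reached the pups through the milk. ELA stands for early life adversity, and it ran from the second to the ninth postnatal day. No group combined standard bedding and nesting with SAFit2. In each condition 1 set of mice was killed without a social encounter (NoInteraction, 7 mice each), and another after 10 minutes with an unfamiliar mouse (SocialInteraction, 6 Ctrl_Veh, 7 ELA_Veh and 7 ELA_SAFit2 mice). Punches of the ventral hippocampus (vHipp), the dorsomedial thalamus (DMT), the basolateral amygdala (BLA), the shell of the nucleus accumbens (Nacc), the medial prefrontal cortex (mPFC) and the anterior cingulate cortex (ACC) of the same 41 mice gave 1 library each. How long after the encounter the tissue was taken is not given in the sources used here.

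Corticosterone acts in the brain through the mineralocorticoid receptor, encoded by Nr3c2, and the glucocorticoid receptor, encoded by Nr3c1. The mineralocorticoid receptor binds the hormone at resting levels and is known for its abundance in the hippocampus, whereas the glucocorticoid receptor has a lower affinity and is occupied as the hormone rises. Before it binds hormone, the glucocorticoid receptor is folded and held by HSP90, whose cytosolic forms are encoded by Hsp90aa1 (stress-inducible) and Hsp90ab1 (constitutive). HOP, the product of Stip1, passes the receptor from HSP70 to HSP90, and p23, the product of Ptges3, stabilises the mature complex. FKBP51 in that complex lowers the receptor's affinity for hormone, and it is exchanged for FKBP52, the product of Fkbp4, as the receptor moves to the nucleus. Fkbp5 is itself induced by the glucocorticoid receptor, which closes a short feedback loop. The enzyme encoded by Hsd11b1 turns the inert 11-dehydrocorticosterone back into corticosterone inside cells.

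Library totals lay between 20804247 and 43351424 estimated counts, with a median of 28844787. Levels are given as CPM, counts scaled to library size after TMM normalization, and differences as log2 ratios with their standard error (SE). A difference was called at an adjusted p under 0.05 in edgeR's quasi-likelihood test, with the Benjamini-Hochberg adjustment over all protein-coding genes tested. Region markers followed the labels. Summed thalamic markers had a median of 2067 CPM in the DMT, medium spiny neuron markers 2154 CPM in the Nacc and hippocampal markers 888.3 CPM in the vHipp. Choroid plexus markers ranged from 23.01 to 5665 CPM among the BLA libraries. In the Nacc, 12 of 41 libraries, 2 in each of the 6 groups, matched another mouse number better than their own over genes that differ between individual mice. Their r was -0.286 to 0.122 with their own number and 0.773 to 0.953 with the best match. The best matches were the same 12 numbers, each once, so condition and set labels of these libraries may be those of another mouse. The 12 libraries were kept under their labels, and the main Nacc values below are also given without them. A single ACC library matched another number by a small margin and the other 4 regions held none. In bulk tissue, fewer cells of a type and less RNA per cell cannot be told apart.

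The 250 bases upstream of the transcription start are shown for 3 members whose levels are followed most closely below, from RefSeq (build GRCm38.p6), to show how differently the start regions of the co-chaperones read. Capitals mark a pair of inverted heat shock units (GAANNTTC or TTCNNGAA, both strands) or a TATA box (TATAAA or TTTATA). Fkbp5 lies on the minus strand at chr17:28486150-28486399, Fkbp4 on the minus strand at chr6:128438657-128438906 and Stip1 on the minus strand at chr19:7040027-7040276.
Fkbp5: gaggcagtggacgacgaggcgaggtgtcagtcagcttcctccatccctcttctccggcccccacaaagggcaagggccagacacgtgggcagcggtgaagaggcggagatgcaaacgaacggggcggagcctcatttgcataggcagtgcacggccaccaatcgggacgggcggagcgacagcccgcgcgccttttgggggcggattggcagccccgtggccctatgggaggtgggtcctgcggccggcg
Fkbp4: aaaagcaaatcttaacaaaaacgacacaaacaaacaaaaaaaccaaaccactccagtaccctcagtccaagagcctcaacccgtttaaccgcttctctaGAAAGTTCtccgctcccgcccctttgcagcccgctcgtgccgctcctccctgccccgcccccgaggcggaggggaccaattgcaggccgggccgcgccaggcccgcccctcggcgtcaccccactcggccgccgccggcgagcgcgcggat
Stip1: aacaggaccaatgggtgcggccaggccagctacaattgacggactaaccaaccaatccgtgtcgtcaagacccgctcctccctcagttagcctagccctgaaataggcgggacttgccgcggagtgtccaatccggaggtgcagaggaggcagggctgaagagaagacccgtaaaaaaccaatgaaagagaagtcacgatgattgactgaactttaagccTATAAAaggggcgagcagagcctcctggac
The Fkbp4 promoter held the pair GAAAGTTC, 151 bases before the start, and among the 6 members with a promoter entry Nr3c2 held a similar pair, GAACTTTC, also at 151 bases. Of 32851 promoters of that length, 12.8% held such a pair. Stip1 had TATAAA 30 bases before its start, a run found in 12.4% of promoters. The glucocorticoid response element (AGAACA, 3 bases of any kind, TGTTCT) was in none of the 6 members' windows and in 3 promoters of the whole set (0.00913%), and its half-site (AGAACA or TGTTCT), found in 16.1%, was in none of the 6 either. The windows say nothing about elements farther away.

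The receptor genes, Fkbp5 and Hsd11b1 differed severalfold between regions, and the chaperone genes by less. On a scale of CPM per kb of exon, Hsp90ab1 led in all 6 regions (488.5 to 571.2) and was followed by Hsp90aa1 (236.2 to 345.2) and Stip1 (75.09 to 100.9). Hsd11b1 was lowest in 5 regions (0.6763 to 1.39 outside the DMT and vHipp, 4.98 in the vHipp), and in the DMT it lay beside Fkbp5, at 2.646 and 2.586. In the vHipp the mineralocorticoid receptor gene Nr3c2 stood at 32.51 CPM per kb and the glucocorticoid receptor gene Nr3c1 at 11.2. Everywhere else Nr3c1 was the higher of the pair, with 23.8 against 4.496 in the DMT and 11.88 against 10.52 in the BLA. Fkbp4 was above Fkbp5 throughout, 52.81 against 2.586 CPM per kb in the DMT and 29.82 against 6.804 in the vHipp.

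**Figure D1:**
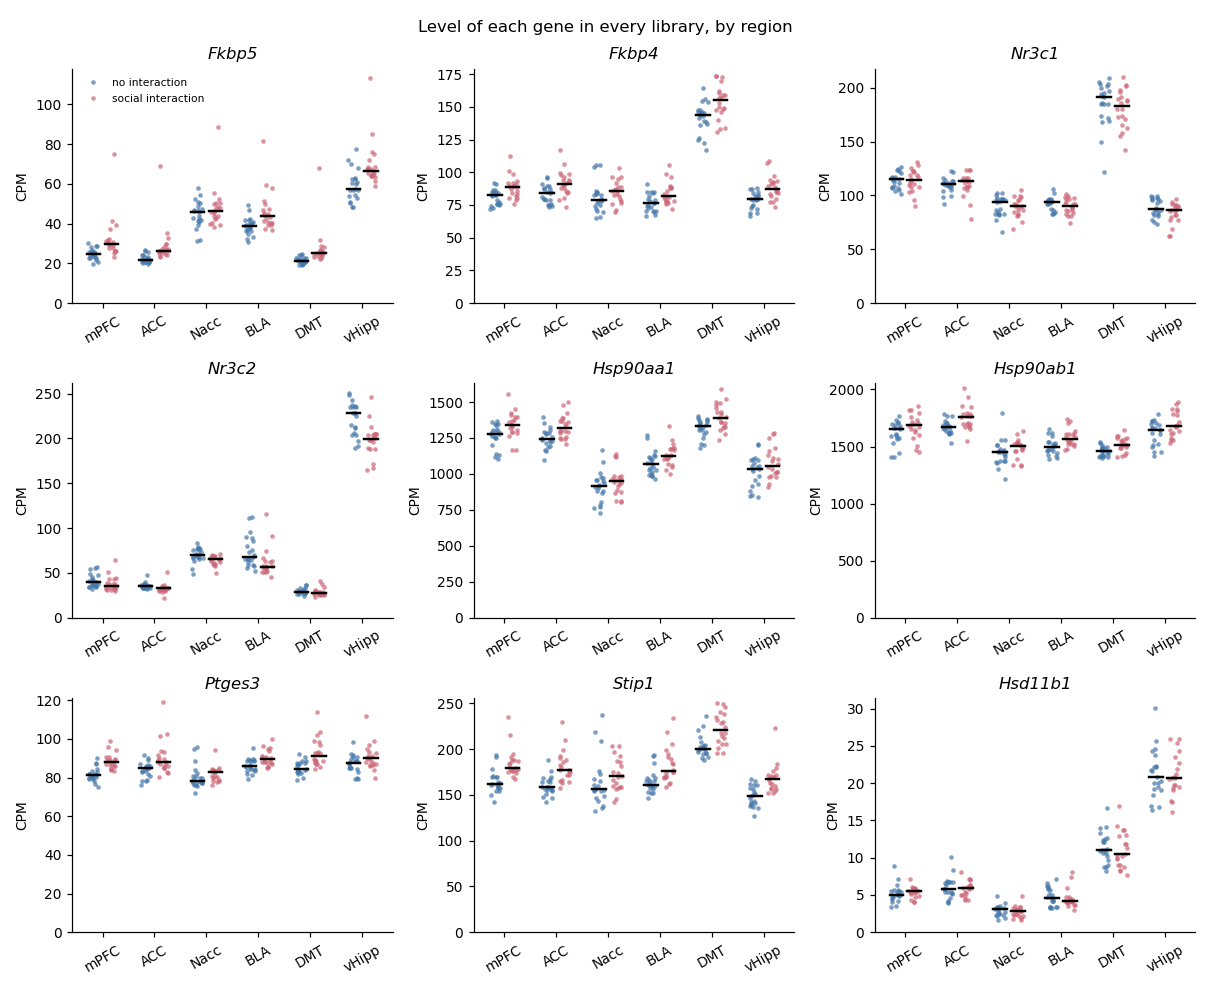
Level of each of the 9 genes in the 6 regions (CPM, linear axis from 0; each point is 1 library, blue without and red after the social encounter, and black lines are medians per set). Nr3c2 and Hsd11b1 spread over 7.23-fold and 7.36-fold between regions, Ptges3 over 1.1-fold.

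Within a gene, Nr3c2 had a mean of 210.5 CPM in the vHipp (164.6 to 250.1 over 41 libraries), 68.1 CPM in the BLA, 67.01 CPM in the Nacc, 39.65 CPM in the mPFC, 34.2 CPM in the ACC and 29.11 CPM in the DMT. No vHipp library overlapped any library of another region, the highest of which was 115.4 CPM in the BLA. Its vHipp level was 7.23 times that of the DMT (log2 difference 2.85, SE 0.050), and BLA and Nacc were the only pair not called (adjusted p = 0.738). Hsd11b1 followed with 21.17 CPM in the vHipp, 11.25 CPM in the DMT, 5.911 CPM in the ACC, 5.311 CPM in the mPFC, 4.657 CPM in the BLA and 2.875 CPM in the Nacc, and all 15 pairs of regions were called. Fkbp5 was highest in the vHipp too, at 64.42 CPM. It stood at 46.36 CPM in the Nacc, 42.55 CPM in the BLA, 28.56 CPM in the mPFC, 25.65 CPM in the ACC and 24.48 CPM in the DMT, a 2.63-fold range in which ACC and DMT alone were not called (adjusted p = 0.267).

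Nr3c1 and Fkbp4 had the DMT on top instead. Nr3c1 was at 182.9 CPM there and at 113.9 CPM in the mPFC, 109.9 CPM in the ACC, 91.3 CPM in the BLA, 89.58 CPM in the Nacc and 86.07 CPM in the vHipp, so the vHipp had the most Nr3c2 and the least Nr3c1. The neighbours mPFC and ACC, BLA and Nacc, and Nacc and vHipp were not called, the last pair being called without the mismatched Nacc libraries (0.07, adjusted p = 0.0403). Fkbp4 reached 147.6 CPM in the DMT and between 80.32 and 87.39 CPM in the other 5 regions, where 6 of the 10 pairs were not called. Hsp90aa1 varied 1.46-fold (14 of 15 pairs called), Stip1 1.34-fold (9 of 15), Hsp90ab1 1.17-fold (13 of 15) and Ptges3 1.1-fold (8 of 15). In all, 108 of 135 tests between regions were called for the 9 genes, where on average 75.3% of all genes were called per pair (39.1% for mPFC against ACC, 83.9% for DMT against vHipp). That share, 80%, is near the background. This fit between regions had no term for the mouse, although each mouse gave a library in every region, so it did not use the pairing. With the mouse as a block more of the 135 tests were called, so a pair given as not called is not shown to be alike. Without the mismatched libraries 1 of the 45 tests that involve the Nacc changed its call, that of Nr3c1 against the vHipp, and the Nacc mean of Fkbp5 was 47.22 CPM and that of Nr3c2 67.42 CPM.

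The second comparison asked how the 9 genes differed between mice killed after the social encounter and mice killed without it. Averaged over the 3 conditions with equal weight, Fkbp5 was higher after the encounter in 5 of 6 regions and the HSP90 co-chaperone gene Stip1 in the same 5. Fkbp4, Ptges3 and Hsp90aa1 passed the test in 2 regions each and Nr3c2 was lower in the vHipp. Of 54 tests, 17 were called, and all but Nr3c2 were increases.

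Before any ratio, Fkbp5 in the DMT ranged from 19.27 to 24.59 CPM (median 21.28) in the 21 mice without the encounter and from 22.31 to 67.74 CPM (median 25.18) in the 20 mice with it. All 20 social mice lay above the median of the others and 14 lay above their highest value. In the ACC the 2 ranges were 19.58 to 26.47 CPM (median 21.78) and 22.94 to 69.01 CPM (median 26.11), and again all 20 were above the median, 9 of them above the maximum. The mPFC gave 19.67 to 30.44 CPM (median 24.92) and 23.4 to 74.85 CPM (median 29.88), with 19 of 20 above the median. The BLA gave 30.74 to 49.11 CPM (median 38.6) and 36.71 to 81.44 CPM (median 44.02), and the vHipp 48.31 to 77.43 CPM (median 57.16) and 59.05 to 113.3 CPM (median 66.35). In the Nacc the medians were 45.93 and 46.21 CPM, and over the 29 matched libraries 43.71 CPM (31.29 to 57.97) and 48.03 CPM (39.42 to 88.52), so the sets overlapped either way.

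**Figure D2:**
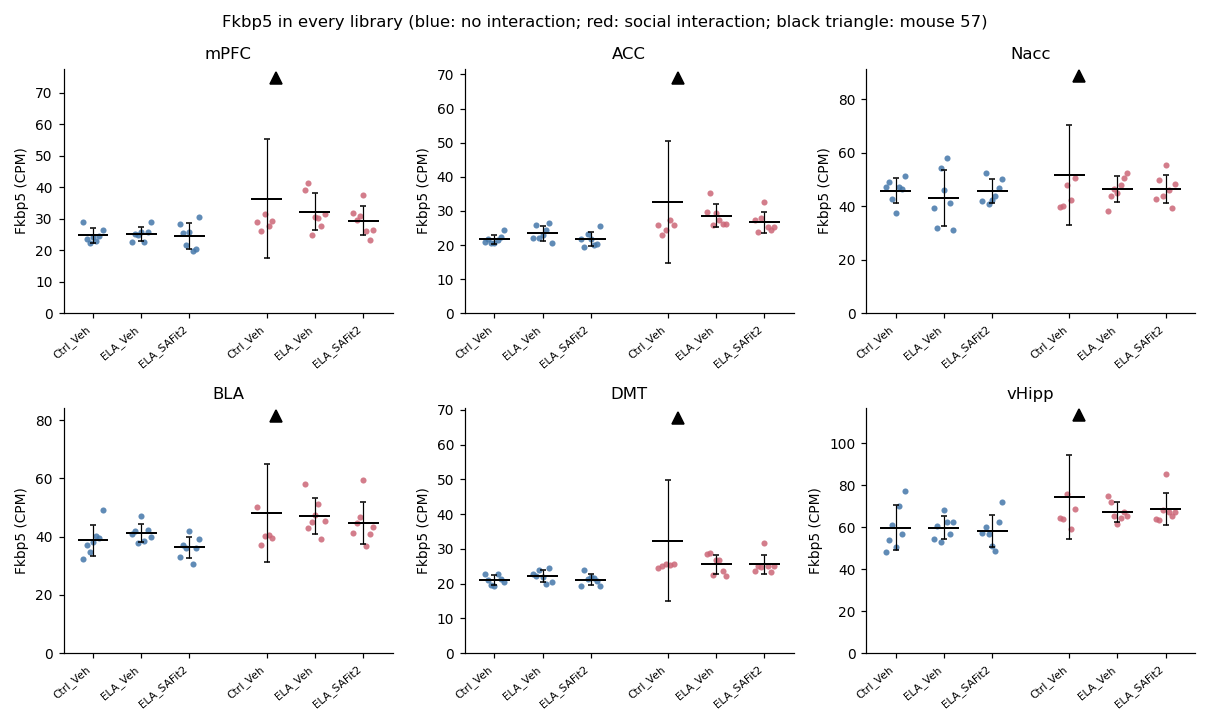
Fkbp5 in every library (CPM) by region, condition and set, each point 1 mouse (blue without, red after the encounter), with black lines and bars for mean ± SD. The ranges overlap, the median of all red points is above that of all blue points in each of the 6 regions, and the black triangle, mouse 57 of Ctrl_Veh, is the highest point of each region, between 67.74 and 113.3 CPM.

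The log2 difference of Fkbp5 was 0.39 (SE 0.093, adjusted p = 0.00589) in the mPFC, where 7.4% of 15812 genes were called. It was 0.39 (SE 0.085, adjusted p = 0.00571) in the ACC, where 4.15% were called, and 0.36 (SE 0.082, adjusted p = 0.0114) in the DMT, where 1.6% were called. The BLA gave 0.26 (SE 0.071, adjusted p = 0.0472) against 1.49% of genes called, and the vHipp 0.24 (SE 0.062, adjusted p = 0.0407) against 1.21%. In the Nacc it was 0.11 (SE 0.078, adjusted p = 1), where 0% of genes were called. Without the 12 mismatched Nacc libraries the difference there was 0.19 (SE 0.090, adjusted p = 0.686), and 0 of the 9 genes were called against 0.0256% of all genes. The 9 genes had 5 calls in the mPFC, 4 in the vHipp, 3 in the ACC, 3 in the DMT and 2 in the BLA.

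Mouse 57, a Ctrl_Veh mouse of the social set, had the highest Fkbp5 of all 41 mice in each of the 6 regions, by a median of 1.25 on the log2 scale above the median of the other mice. Its libraries matched their own mouse number in all regions. Without this mouse the Fkbp5 difference was 0.28 (SE 0.061, adjusted p = 0.00344) in the mPFC, 0.27 (SE 0.043, adjusted p = 0.000325) in the ACC and 0.24 (SE 0.036, adjusted p = 0.000157) in the DMT. In the BLA it was 0.19 (SE 0.054, adjusted p = 0.0788) and in the vHipp 0.19 (SE 0.051, adjusted p = 0.0773), so 2 of the 5 calls were lost. Over the 9 genes the calls without mouse 57 were 5 (mPFC), 3 (ACC), 3 (DMT), 1 (vHipp, Stip1) and 0 (BLA), against 6.31%, 2.94%, 1.11%, 0.611% and 0.676% of all genes.

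Stip1, which encodes HOP, moved with a smaller ratio and a tighter spread. In the vHipp it ranged from 127.4 to 166.9 CPM (median 148.4) without the encounter and from 152.2 to 223.0 CPM (median 167.4) with it, all 20 social mice being above the other set's median. The log2 difference was 0.18 (SE 0.037, adjusted p = 0.0084) in the vHipp, 0.18 (SE 0.037, adjusted p = 0.00349) in the ACC and 0.17 (SE 0.035, adjusted p = 0.00169) in the mPFC. It was 0.15 (SE 0.039, adjusted p = 0.0484) in the BLA and 0.13 (SE 0.031, adjusted p = 0.0203) in the DMT. The BLA call lay at the threshold and held in 12 of 41 fits that each left out 1 mouse, over which the difference stayed between 0.12 and 0.16, whereas the other 4 calls of Stip1 held in all 41. The highest value in the mPFC, ACC, BLA and vHipp came from mouse 59, an ELA_Veh mouse of the social set. In the Nacc the difference was 0.08 (SE 0.055, adjusted p = 1), and without the mismatched libraries 0.16 (SE 0.055, adjusted p = 0.462).

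Ptges3, the p23 gene, had the smallest adjusted p among the 9 genes. In the mPFC it ranged from 75.15 to 90.18 CPM (median 81.21) without and from 83.36 to 98.76 CPM (median 88.2) with the encounter, a log2 difference of 0.12 (SE 0.021, adjusted p = 0.000209). In the DMT, 10 of 20 social mice exceeded every mouse without the encounter, and the difference was also 0.12 (SE 0.027, adjusted p = 0.00767). Fkbp4 was called in the mPFC (0.13, SE 0.036, adjusted p = 0.026) and the vHipp (0.16, SE 0.040, adjusted p = 0.0305), and Hsp90aa1 in the mPFC (0.09, SE 0.029, adjusted p = 0.048) and the ACC (0.09, SE 0.025, adjusted p = 0.0261). These genes and Hsp90ab1 had a positive difference in all 6 regions, Hsp90ab1 between 0.05 and 0.07 with no call.

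The receptor genes did not share this direction. Nr3c2 in the vHipp ranged from 189.0 to 250.1 CPM (median 228.0) without and from 164.6 to 246.3 CPM (median 199.7) with the encounter, and 19 of 20 social mice were below the median of the others. The log2 difference there was -0.16 (SE 0.041, adjusted p = 0.0376; without mouse 57, -0.15, SE 0.040, adjusted p = 0.0802). In the other regions it lay between -0.28 in the BLA and -0.04 in the DMT, with no call. Nr3c1 differed by -0.09 to 0.00 and Hsd11b1 by -0.11 to 0.06, and neither was called anywhere.

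**Figure D3:**
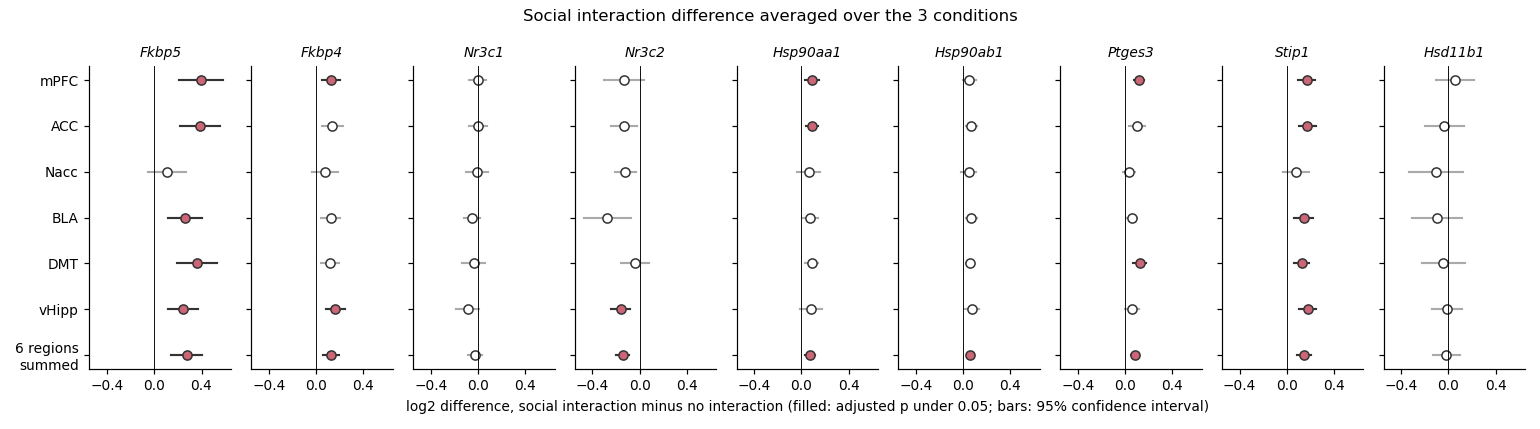
Log2 difference between mice with and without the social encounter, averaged over the 3 conditions, for the 9 genes in the 6 regions and in the sum of the regions (points are edgeR estimates, bars their 95% confidence intervals, filled points an adjusted p under 0.05). Fkbp5 has the largest differences, up to 0.39, and Nr3c2 lies below 0 in every region.

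With the counts of the 6 regions added up per mouse, 7 of the 9 genes were called where 8.56% of 17381 genes were. The log2 differences were 0.27 for Fkbp5 (SE 0.066, adjusted p = 0.00655), 0.14 for Stip1 (SE 0.030, adjusted p = 0.00167), 0.13 for Fkbp4 (SE 0.032, adjusted p = 0.01) and 0.09 for Ptges3 (SE 0.017, adjusted p = 0.00127). Hsp90aa1 gave 0.08 (SE 0.021, adjusted p = 0.017), Hsp90ab1 0.06 (SE 0.013, adjusted p = 0.00504) and Nr3c2 -0.14 (SE 0.028, adjusted p = 0.00106). Nr3c1 gave -0.03 (SE 0.029, adjusted p = 0.642) and Hsd11b1 -0.02 (SE 0.057, adjusted p = 0.904). In linear terms Fkbp5 was 1.21-fold higher, Stip1 1.11-fold, Fkbp4 1.09-fold, and Nr3c2 was at 0.905 of its level. The same 7 were called when the Nacc was left out of the sum and in each of the 41 fits that left out 1 mouse. In a permutation test on the mean over the regions of log2 values their unadjusted p was 0.00063 or lower. These fits and tests take each mouse as independent. Mouse numbers run in short series of 1 set, and the paper describes cages that mixed the conditions from weaning. The labels name no cage, so no test took the cage as its unit. Without mouse 57 the summed difference of Fkbp5 was 0.19 (SE 0.036, adjusted p = 0.00111).

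Split by condition, the encounter's effect on the 9 genes was not resolved. Of 162 tests within single conditions and regions, 0 were called by edgeR, while 51 had an unadjusted p under 0.05 and DESeq2 called 3 (Ptges3 in the mPFC and DMT of ELA_SAFit2 mice, Fkbp5 in the ACC of Ctrl_Veh mice). The background was 0.0891% of all genes. With the regions summed, Ptges3 (0.13, SE 0.029, adjusted p = 0.0192) and Stip1 (0.20, SE 0.051, adjusted p = 0.032) were called in ELA_SAFit2 mice, 2 of 9 tests in that condition, where 1.61% of all genes were called. In the other 2 conditions 0 of 18 tests were called. The share of all genes called ranged from 0.023% to 1.61% over the 3 conditions, the highest being that of ELA_SAFit2 mice. These calls therefore do not show a response particular to that condition. The summed Fkbp5 difference was 0.38 in Ctrl_Veh (SE 0.117, adjusted p = 0.259), 0.21 in ELA_Veh (SE 0.113, adjusted p = 0.472) and 0.23 in ELA_SAFit2 mice (SE 0.113, adjusted p = 0.336), and the Ctrl_Veh value includes mouse 57. Without this mouse it was 0.12 (SE 0.066, adjusted p = 0.778) in Ctrl_Veh, and the ELA_SAFit2 difference was called (0.24, SE 0.061, adjusted p = 0.0322). The share of all genes called in single conditions without this mouse was not computed. Whether the response differed between regions was tested directly. A region's response minus the mean of the others was called in 0 of 54 tests (3 at an unadjusted p under 0.05, background 0.0393%), the smallest p being that of Fkbp5 in the Nacc (-0.23, SE 0.089, adjusted p = 0.863), which was -0.13 (SE 0.102, adjusted p = 1) without the mismatched libraries. This fit had no term for the mouse, although a mouse's regions shared their deviations for some genes, so it did not use the pairing of regions. A difference between regions in these responses was therefore not shown by it, although the calls differ, and a paired fit was not run.

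Other genes of the HSP90 cycle and known glucocorticoid targets were described by lists, which were chosen with earlier results of these data known. List A held 31 further chaperones, co-chaperones and heat shock factors. After the encounter the mPFC had 9 of its members higher, the ACC 8, the BLA 4, the DMT 11, the vHipp 5 and the Nacc 0, and 0 were lower. Its median log2 difference lay between 0.05 and 0.06 in the 5 regions with calls, where 4.81%, 2.42%, 0.825%, 1.04% and 0.821% of all genes were higher in the mPFC, ACC, BLA, DMT and vHipp (0% in the Nacc) and the median of all genes lay within 0.003 of 0. Among them were the HSP70 co-chaperone gene Hsph1 (0.33, SE 0.045, adjusted p = 7.45e-06 in the mPFC), Hspa4 (0.16, SE 0.021, adjusted p = 2.53e-06 in the mPFC), the constitutive HSP70 gene Hspa8 (0.18, SE 0.028, adjusted p = 5.58e-05 in the mPFC) and the J-domain gene Dnaja1 (0.14, SE 0.023, adjusted p = 0.000283 in the ACC). In the DMT the stress-inducible HSP70 genes Hspa1a (0.80, SE 0.125, adjusted p = 0.000375) and Hspa1b (0.80, SE 0.133, adjusted p = 0.000832) led, but they are near-identical copies whose reads cannot be told apart with confidence. Chordc1, an HSP90 co-chaperone, was higher in the DMT (0.22, SE 0.037, adjusted p = 0.00093) and the vHipp (0.13, SE 0.030, adjusted p = 0.019). Without mouse 57 List A had 9, 7, 1, 9, 4 and 0 members higher in the mPFC, ACC, BLA, DMT, vHipp and Nacc, where 4.21%, 1.73%, 0.382%, 0.739%, 0.459% and 0% of all genes were. Without the mismatched libraries it still had 0 in the Nacc.

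List C held 20 genes that glucocorticoids are known to induce. The mPFC, ACC and BLA each had 5 of them higher, the DMT 6, the vHipp 3 and the Nacc 0, and 0 were lower, with a median difference between 0.12 and 0.17 in the 5 regions with calls, against the shares of all genes higher there of 4.81% (mPFC), 2.42% (ACC), 0.825% (BLA), 1.04% (DMT) and 0.821% (vHipp). Without mouse 57 the median was 0.09 in the mPFC (from 0.16), 0.10 in the DMT (from 0.17), 0.08 in the BLA and 0.12 in both the ACC and vHipp. Plin4, which encodes a lipid droplet protein, had the smallest adjusted p of the list in each of these 5. In the DMT it went from a median of 1.95 CPM (1.11 to 4.64) to 7.18 CPM (2.78 to 71.2), a log2 difference of 2.37 (SE 0.288, adjusted p = 4.14e-06), and without mouse 57 it was 1.89 (SE 0.196, adjusted p = 1.74e-07). Cdkn1a, a cell cycle inhibitor, rose by 0.88 in the DMT (SE 0.150, adjusted p = 0.000832), the transcription factor gene Klf9 by 0.17 in the ACC (SE 0.029, adjusted p = 0.000449) and Tsc22d3, which encodes GILZ, by 0.31 in the mPFC (SE 0.076, adjusted p = 0.00831). Without mouse 57 the counts were 4, 4, 2, 6, 2 and 0 in the order of regions given for List A, beside the shares of all genes given there, and in the sum of the regions they were 8 of 20 with and without it (4.71% of all genes were higher with it). Without the mismatched libraries 1 member, Plin4, was called in the Nacc (2.51, SE 0.387, adjusted p = 0.00404).

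List B, 17 genes of glucocorticoid handling and receptor cofactors, had 1 call, the coactivator gene Crebbp in the mPFC (0.07, SE 0.018, adjusted p = 0.0125). The 14 marker lists had few calls in this comparison. In the single regions, 1 endothelial gene of 4 was higher in the mPFC, ACC, BLA, DMT and vHipp, and 1 astrocyte and 1 microglia gene of 4 were lower in the ACC. Some lists without a call had medians larger in size than any difference of the 9 genes but Fkbp5, on few or low-level markers. In the DMT these were choroid plexus (1.08, summed level 4.972 to 1055 CPM without and 6.237 to 1383 CPM with the encounter), GABAergic neurons (0.75) and olfactory bulb (0.51). In the vHipp they were choroid plexus (-1.47, 16.92 to 287.6 and 16.45 to 77.65 CPM) and thalamic neurons (-0.34), and in the ACC olfactory bulb (-0.83) and fibroblasts (-0.32). The Nacc had olfactory bulb at -0.44. Their part in the differences was not tested.

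The third comparison was between the conditions of the study. SAFit2 inhibits the protein FKBP51 and was given to the dams at the start of the adversity period. The values here are mRNA levels of the adult offspring, so they do not measure the drug's action on the protein. In this adult tissue none of the 9 genes passed the test between conditions. Of 324 tests within region and set 0 were called by edgeR or by DESeq2, and 15 (4.63%) had an unadjusted p under 0.05 where all genes gave 4.38%. Over the same 36 comparisons 0.000526% of all gene tests were called. With the regions summed, 0 of 81 tests were called against a background of 0.000639%, where 2 reached an unadjusted p under 0.05.

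In the mPFC, Fkbp5 without the encounter had medians of 24.14 CPM in Ctrl_Veh (22.43 to 28.86), 25.28 CPM in ELA_Veh (22.59 to 28.89) and 25.54 CPM in ELA_SAFit2 mice (19.67 to 30.44). In the vHipp these were 56.87 CPM (48.31 to 77.43), 60.58 CPM (52.98 to 68.18) and 57.16 CPM (48.59 to 71.78). The 3 conditions overlapped in both. Over all 36 within-region tests, Fkbp5 differed by -0.34 to 0.12 on the log2 scale, with 95% confidence limits reaching -0.64 and 0.41. The lowest value was ELA_Veh against Ctrl_Veh in the DMT after the encounter (-0.34, SE 0.145, adjusted p = 1), and it turned to 0.01 (SE 0.067, adjusted p = 1) without mouse 57, 1 of the 6 Ctrl_Veh mice. Without this mouse Fkbp5 differed by -0.17 to 0.18 over the 36 tests, with limits of -0.36 and 0.40. For the regions summed the limits of Fkbp5 were -0.42 and 0.25, or -0.18 and 0.24 without mouse 57, and ELA_Veh against Ctrl_Veh after the encounter went from -0.15 (SE 0.117, adjusted p = 0.921) to 0.10 (SE 0.067, adjusted p = 0.787).

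Of the chaperones, Hsp90ab1 lay between -0.10 and 0.09 and Ptges3 between -0.10 and 0.13, with confidence limits reaching -0.18 and 0.19 for Hsp90ab1 and -0.19 and 0.23 for Ptges3. The limits of Stip1 reached -0.38 and 0.42, the upper one beyond that of Fkbp5. Hsp90aa1 lay between -0.09 and 0.15, Stip1 between -0.19 and 0.23, Fkbp4 between -0.13 and 0.17 and Nr3c1 between -0.13 and 0.15. Stip1's largest difference was in the Nacc, ELA_Veh against Ctrl_Veh without the encounter (0.23, SE 0.094, adjusted p = 0.605), where 4 of the 14 libraries are mismatched, and without them it was 0.06 (SE 0.094, adjusted p = 1). Nr3c2 lay between -0.25 and 0.33, and its summed level after the encounter was 0.15 higher in ELA_Veh than in Ctrl_Veh mice (SE 0.050, adjusted p = 0.791; without mouse 57, 0.12, SE 0.051, adjusted p = 0.67).

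Hsd11b1, which sets local corticosterone, had the smallest unadjusted p of the 324. In the ACC without the encounter it ranged from 3.938 to 6.702 CPM (median 5.354) in Ctrl_Veh, from 5.083 to 10.09 CPM (median 6.688) in ELA_Veh and from 4.168 to 6.935 CPM (median 5.758) in ELA_SAFit2 mice. ELA_Veh was above Ctrl_Veh by 0.43 (SE 0.137, adjusted p = 0.949), and ELA_SAFit2 was below ELA_Veh by -0.31 (SE 0.136, adjusted p = 1). The mPFC gave 0.36 for the first of these (SE 0.136, adjusted p = 0.971). Over the 36 tests Hsd11b1 ranged from -0.49 to 0.43, with limits of -0.86 and 0.73, and the lowest was ELA_SAFit2 against ELA_Veh in the BLA after the encounter (-0.49, SE 0.179, adjusted p = 0.989). Without the encounter ELA_SAFit2 was not below ELA_Veh in the DMT (0.10, SE 0.153, adjusted p = 1) or the vHipp (0.01, SE 0.109, adjusted p = 1). After the encounter the ACC medians were 5.508, 6.368 and 5.88 CPM. None of these differences passed the adjustment, and the 3 ranges overlapped.

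**Figure D4:**
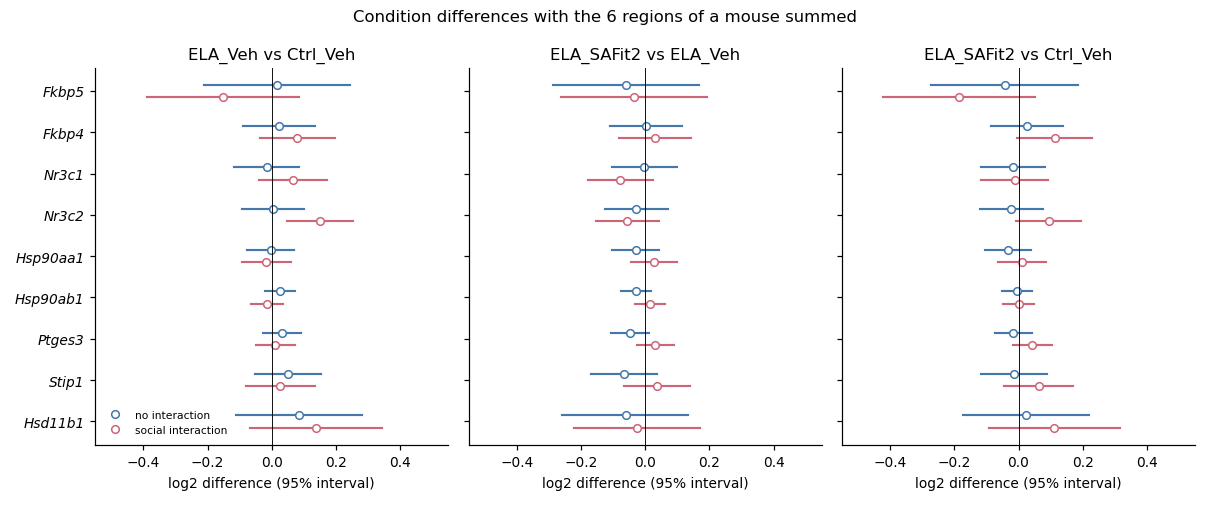
Log2 differences between conditions for the 9 genes with the 6 regions of a mouse summed, by set (points are edgeR estimates, bars their 95% confidence intervals). The intervals of Hsp90ab1 stay between -0.08 and 0.07, those of Fkbp5 reach -0.42 and 0.25, and the 1 interval that leaves out 0 is that of Nr3c2 for ELA_Veh against Ctrl_Veh after the encounter (0.05 to 0.25).

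Whether rearing or SAFit2 changed the response to the encounter was tested as an interaction in each region. Of 108 tests 0 were called by edgeR and by DESeq2 (5 at an unadjusted p under 0.05, background 0.0116%). For Fkbp5 the interaction lay between -0.43 and 0.10, and the lowest was ELA_Veh against Ctrl_Veh in the DMT (-0.43, SE 0.202, adjusted p = 1). Without mouse 57 that value was -0.07 (SE 0.091, adjusted p = 1) and the range of Fkbp5 -0.10 to 0.16. Lists A, B and C had 0 members called in any comparison between conditions or interaction.

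Among the 9 genes the spread between mice of 1 group was widest for Hsd11b1, Fkbp5 and Nr3c2. The standard deviation of log2 levels within region, condition and set was 0.29 for Hsd11b1, 0.25 for Fkbp5 and 0.21 for Nr3c2, against 0.15 for the median gene. It was 0.14 for both Nr3c1 and Fkbp4, 0.13 for Stip1, 0.12 for Hsp90aa1 and 0.08 for both Hsp90ab1 and Ptges3. Hsd11b1 had the lowest counts of the 9 genes, 41 to 717 per library, and counting noise was not separated from the spread between mice. The coefficient of variation of Fkbp5 CPM was 27.0% to 54.8% by region in the Ctrl_Veh social group, which holds mouse 57. In the other groups it was 5.93% to 24.0%. The standard deviation of Fkbp5 and its r between regions, given next, were not computed without mouse 57. A mouse's deviation from its group was shared between its regions for some genes. Over the 10 pairs of the 5 regions other than the Nacc and 41 mice, the mean Pearson r was 0.73 for Stip1, 0.72 for Fkbp5 and 0.67 for Fkbp4, while the median gene had 0.12. Ptges3 had 0.43, Hsd11b1 0.35, Hsp90aa1 0.28, Nr3c1 0.24, Hsp90ab1 0.19 and Nr3c2 0.04. Over the 5 pairs of the Nacc with another region the mean was 0.17 for Stip1, 0.51 for Fkbp5 and 0.31 for Fkbp4, and over the 29 mice with a matched Nacc library it was 0.57, 0.68 and 0.71.

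**Figure D5:**
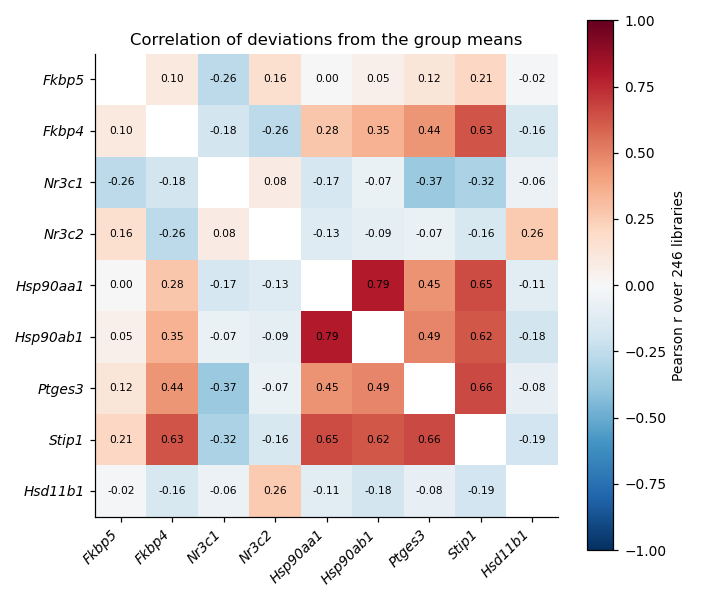
Pearson r between the 9 genes over all libraries, after subtracting the mean of each region, condition and set. Over all libraries r is 0.45 to 0.79 among Hsp90aa1, Hsp90ab1, Ptges3 and Stip1, and Fkbp5 lies between -0.26 and 0.21 with the others.

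The same deviations, compared between genes over all libraries, gave higher r among the chaperones than between Fkbp5 and the other genes, though not in every region. The points share mice, libraries and depth, so these values are descriptions. Hsp90aa1 and Hsp90ab1 had r = 0.79, Ptges3 and Stip1 0.66, Hsp90aa1 and Stip1 0.65, and Fkbp4 and Stip1 0.63. Fkbp5 had 0.21 with Stip1, 0.10 with Fkbp4 and -0.26 with Nr3c1, the last between -0.55 in the vHipp and 0.06 in the BLA. These values were not computed without mouse 57, whose Nr3c1 lay a median of -0.33 from the other mice's median. In the BLA Fkbp5 had 0.52 with Hsp90ab1 and 0.41 with Stip1, and in the mPFC Hsp90aa1 had -0.01 with Ptges3 and 0.25 with Stip1 and Hsp90ab1 had 0.20 with Ptges3. The genes most like Fkbp5 among 15162 were Smim3 (0.71), Xdh (0.71) and Mertk (0.70), which fell to 0.53, 0.51 and 0.53 without mouse 57. Of the 20 genes of List C, 14 had an r above 0.3 with Fkbp5 (median 0.40), and 7 without mouse 57 (median 0.26). The median r of all 15162 genes with Fkbp5 was -0.0. The share of all genes above 0.3 was not computed, and List C was chosen with earlier results of these data known. Stip1 was most like Ahsa1 (0.83), Hspa8 (0.83) and Hsp90b1 (0.82), Hsp90aa1 most like Dnaja1 (0.81) and Hspa4 (0.81), and Hsp90ab1 most like Dnaja1 (0.82) and Hspa8 (0.79), all genes of List A. Ptges3 was most like Manf (0.70), Pdia3 (0.69) and Cacybp (0.69), Fkbp4 most like Itfg2 (0.69) and, after Stip1, Cct3 (0.55), Nr3c1 most like Dock3 (0.65), Myt1l (0.60) and Cacnb4 (0.59), and Nr3c2 most like Zbtb20 (0.68), Tanc1 (0.59) and Prkca (0.59). Zbtb20 is on the list of hippocampal markers. Nr3c2 and Hsd11b1 had 0.26 over all libraries, with 0.73 in the BLA, 0.49 in the DMT and -0.16 to 0.05 in the other regions. Hsd11b1, the gene with the lowest counts, had no close match over all libraries, with Anxa11 at 0.45, Laptm4a at 0.44 and Bdh1 at 0.43.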

How the data were processed

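Poly(A) RNA of pooled bilateral punches was sequenced by the authors from stranded mRNA libraries, and the table holds the estimated counts per gene that the authors deposited (not normalized, named for salmon). The submitters' processing notes also name STAR, DESeq2 and GRCm39 (mm39) without versions. Of its values, 12.12% were not whole and were rounded. Gene types and exon lengths came from GENCODE M21 (52073 of 56691 identifiers matched, 978 typed by RefSeq symbol, 3640 untyped and left out of the tests), and promoters from RefSeq (GRCm38.p6), where 6 of the 9 genes had an entry.

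Groups were taken from the labels. The 9 genes, Lists A to C and the marker lists were chosen with earlier results of these data known. Genes annotated as protein-coding whose counts added up to 100 or more and were above 0 in 6 or more libraries went into edgeR 4.0.16 (quasi-likelihood, TMM, Benjamini-Hochberg over all genes, R 4.3.3), in 1 fit per region over the 6 groups of mice, on counts summed per mouse, and over all libraries for the regions. Scripts were tested on simulated data. Permutation tests were two-sided, exact between conditions and with 100000 permutations within condition for the sets, on log2 values with a pseudocount of 1. Summaries used python 3.11.15 and scipy 1.17.1. From each list at most 4 genes with the smallest adjusted p were named per comparison, and for each of the 9 genes the 3 with the highest Pearson r. Mouse numbers pair regions because they name the same animal, which genes that differ between individual mice matched in 5 regions apart from 1 ACC library. Alternatives were DESeq2 1.42.0, its size factors, no count filter, genes of every type, sets fitted alone, the mouse as a block, leaving out mismatched Nacc libraries, the Nacc or each mouse.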

Additional observations from a re-analysis of the deposited data

Results flagged for a closer look

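Each of the 9 genes was examined in 36 groups of 6 or 7 libraries. In 36 of these 324 cases 1 value, from 14 mice in all, stood far from the rest of its group by Dixon's test at the 95% level, which chance gives in about 1 case in 20, and some libraries were named for more than 1 gene. Mouse 57 gave 7 of them. It had the highest Fkbp5 of the Ctrl_Veh social group in the mPFC (74.85 CPM, next 31.45), the ACC (69.01, next 27.44), the Nacc (88.52, next 50.59), the BLA (81.44, next 50.09), the DMT (67.74, next 25.59) and the vHipp (113.3, next 75.95), and the lowest Nr3c1 in the mPFC (89.92, next 110.7).

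Mouse 59, of the ELA_Veh social group, gave 7 as well. These were the highest Stip1 in the mPFC (235.1 CPM, next 184.9), ACC (229.2, next 182.8), BLA (233.8, next 191.8) and vHipp (223.0, next 169.7), the highest Fkbp4 in the BLA (105.3, next 88.45), the highest Ptges3 in the vHipp (111.7, next 90.97) and the lowest Nr3c1 in the vHipp (62.48, next 85.71). In the ELA_SAFit2 social group, mouse 63 had the highest Fkbp5 in the DMT (31.59, next 25.23) and vHipp (85.24, next 68.4) and the highest Ptges3 in the Nacc (94.29, next 84.26). In the ELA_Veh social group, mouse 61 had the highest Fkbp5 in the ACC (35.39, next 29.73) and the highest Nr3c2 in the ACC (51.39, next 33.53) and DMT (37.73, next 29.56).

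Among mice without the encounter, mouse 7 (ELA_SAFit2) had the highest Stip1 in the ACC (188.2, next 158.6) and BLA (192.7, next 161.3) and the highest Hsp90aa1 in the ACC (1395, next 1255). Mouse 43 (ELA_Veh) had the highest Hsp90aa1 (1274, next 1090) and the lowest Nr3c1 (82.75, next 93.3) in the BLA. Mouse 15 (ELA_SAFit2) had the lowest Nr3c1 in the DMT (122.1, next 173.7) and the highest Nr3c2 in the ACC (37.82, next 35.7). Mouse 65 (Ctrl_Veh) had the lowest Fkbp4 in the DMT (116.9, next 139.3) and the highest Nr3c2 in the ACC (47.06, next 37.2). Single cases were Fkbp4 in the vHipp of an ELA_SAFit2 mouse (lowest, 68.51, next 79.34), Nr3c1 in the ACC of Ctrl_Veh mouse 33 (highest, 122.1, next 113.8), Nr3c2 in the mPFC of Ctrl_Veh mouse 1 (highest, 55.73, next 40.91) and Ptges3 in the ACC of ELA_Veh mouse 99 (lowest, 76.36, next 84.98).

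In the social set the rest were Ctrl_Veh mice. Mouse 89 had the highest Ptges3 in the ACC (118.9, next 89.61), and the Nacc library labelled with its number, 1 of the 12 mismatched, had the lowest Hsp90ab1 (1333, next 1463). Mouse 25 had the lowest Hsd11b1 in the mPFC (4.081, next 5.332).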

How the results depend on the processing

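Calls between conditions stayed at 0 under every alternative run, within regions and summed, and so did the interactions. Of 54 tests of the social encounter, 17 were called, against 22 by DESeq2's Wald test, 16 with DESeq2's size factors, 14 without a count filter, 15 with genes of every type and 17 without the mismatched Nacc libraries. With each mouse left out in turn (5 regions, the Nacc not refitted) the count ranged from 11 to 19, and it was 11 without mouse 59, mouse 63 or mouse 71. Within single conditions it was 0, with 3 by DESeq2 and 0 to 3 with 1 mouse left out. The summed comparison kept 7 calls throughout. Calls near the threshold were lost: Hsp90aa1 in the mPFC had an adjusted p of 0.0558 with DESeq2's size factors, and Fkbp5 and Stip1 in the BLA had 0.0551 and 0.0536 without a count filter and held in 14 and 12 of 41 fits that left out 1 mouse. In the same way Fkbp5 in the vHipp held in 22, Nr3c2 in the vHipp in 27 and Hsp90aa1 in the mPFC in 13. Over the named values, 139 of 151 alternatives for the encounter and all 41 for conditions kept direction and side of the threshold, 12 kept the direction alone, and none of these turned. Of the fits without 1 mouse, these counts take only those with the lowest and highest difference. They therefore do not show how often a call was lost. The condition values were the 6 tests of smallest p, with edgeR adjusted p of 0.355 or more, and a difference that shrank counted as kept. Fkbp5 in ELA_Veh against Ctrl_Veh after the encounter did turn without mouse 57, in the DMT (-0.34 to 0.01) and in the sum of the regions (-0.15 to 0.10). Between regions, 108 of 135 tests were called, 112 with the mouse as a replicate block, 97 in mice without the encounter and 109 without the mismatched Nacc libraries. The alternatives of the summed social response, of the response by region and of single conditions, and the fits without mouse 57 for lists, were chosen after seeing the data. With 6 or 7 mice a group, the 95% confidence limits of Fkbp5 between conditions within a region reached -0.64 and 0.41 on the log2 scale.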

Other observations

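Mouse 57, singled out for its Fkbp5, was also high in some known glucocorticoid targets. Of the 20 genes of List C, 7 were highest of all 41 mice in each of the 6 regions in this mouse, and 10 in 5 or more regions. Of the 9 genes described above this held for Fkbp5 alone, the gene by which the mouse was picked. The share of all genes that were highest in this mouse was not computed. List C was chosen with earlier results of these data known, so whether these counts are unusual was not tested. The median excess of mouse 57 over the other mice's median was 4.30 on the log2 scale for Plin4, 2.69 for Map3k6, 2.10 for Sult1a1, 1.25 for Tsc22d3 (GILZ), 1.16 for Mt2 (a metallothionein), 1.01 for Zbtb16 and 0.91 for Gjb6 (connexin 30). Among the other List C genes this excess ranged from 0.13 for Errfi1 to 1.14 for Cdkn1a, with Sgk1 at 0.32, Per1 at 0.19 and Dusp1 at 0.30. For Hsp90aa1 and Hsp90ab1 it was 0.07 and 0.03. Nr3c1 was lower in this mouse by a median of -0.33.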
